A study of Mus musculus with 9 samples.

Results

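Chemokines are small secreted proteins that attract cells, and their receptors sit on the cells that are attracted. The genes described here are the chemokine ligands and receptors of the mouse, taken by name: every gene symbol in the deposited table that begins with Ccl or Cxcl and a digit, the numbered Ccr, Cxcr and Ackr receptors, and Xcl1, Xcr1, Cx3cl1 and Cx3cr1. The rule uses no measured value, and it found 57 of the 23361 genes in the table, 38 ligands and 19 receptors. No gene was listed under an Ackr symbol, and Cxcr7 is the older symbol of Ackr3.

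Poly(A)-selected RNA was sequenced in 9 libraries of mouse skin cells. The cells had been isolated by flow sorting, and their label is melanocyte stem cells, a reserve in the hair follicle that renews the pigment-making melanocytes. The groups were UVB, Active and Quiescent, with 3 libraries each. All carried the genotype labelled TBPT, whose alleles are not spelled out in the labels, and all mice were 10 weeks old. The treatment label names depilation by chemicals or irradiation with UVB, the medium-wave ultraviolet band, in the same words for every sample, so which group was depilated is not stated. The labels also do not say whether libraries of a group came from separate animals, or name the markers of the sort, so p-values measure only the spread between these libraries.

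A chemokine binds a receptor with 7 membrane-spanning stretches coupled to an inhibitory G protein, and the cell moves up the gradient. CC ligands mostly attract monocytes, dendritic cells and T cells, and CXC ligands attract neutrophils, activated T cells or, in the case of Cxcl12, stem and progenitor cells that carry Cxcr4. Atypical receptors such as Cxcr7 take up chemokines without the usual G protein signal. In skin, keratinocytes, fibroblasts, endothelium and resident immune cells are known sources of chemokines, and most of the receptors are known from leukocytes.

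Library totals ran from 21045071 to 35131778 fragments, and a level is given as CPM, fragments per 1000000 of the library total after scaling between libraries. The 8 markers of the pigment lineage, which define the labelled cell type, summed to 842 to 1026 CPM in UVB, 7653 to 12452 CPM in Active and 74.3 to 120 CPM in Quiescent libraries. Sox10, a transcription factor of that lineage, had 312 to 581 CPM in UVB, 551 to 661 CPM in Active and 0.295 to 3.99 CPM in Quiescent libraries, and did not pass between UVB and Active (adjusted p = 0.686). The other 7 of the 8 markers were called lower in UVB than Active, where 9.19% of all genes were. The median log2 fold change of the 8 was -3.60 in that comparison. Fibroblast markers summed to 21806 to 34005 CPM in UVB, 4748 to 6036 CPM in Active and 333985 to 450889 CPM in Quiescent libraries. Quiescent replicate 2 stood apart from its group: 7 macrophage markers summed to 2117 CPM there, against 296 and 167 CPM in the other Quiescent libraries, with 607, 671 and 1326 CPM in UVB and 83.6, 87.6 and 34.6 CPM in Active libraries. The 6 dendritic and Langerhans cell markers summed to 2514, 1521 and 2444 CPM in UVB, 149, 132 and 70.1 CPM in Active, and 180, 1612 and 34.3 CPM in Quiescent libraries. T cell markers other than Thy1, which fibroblasts also express, summed to 22, 16.2 and 13.6 CPM in UVB, 3.37, 1.96 and 2.78 CPM in Active, and 2.82, 1.61 and 1.24 CPM in Quiescent libraries. The female transcript Xist had 23353 to 30356 fragments in UVB libraries and 4 to 12 in all others, so the effects of sex and of UVB cannot be told apart.

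**Figure D1:**
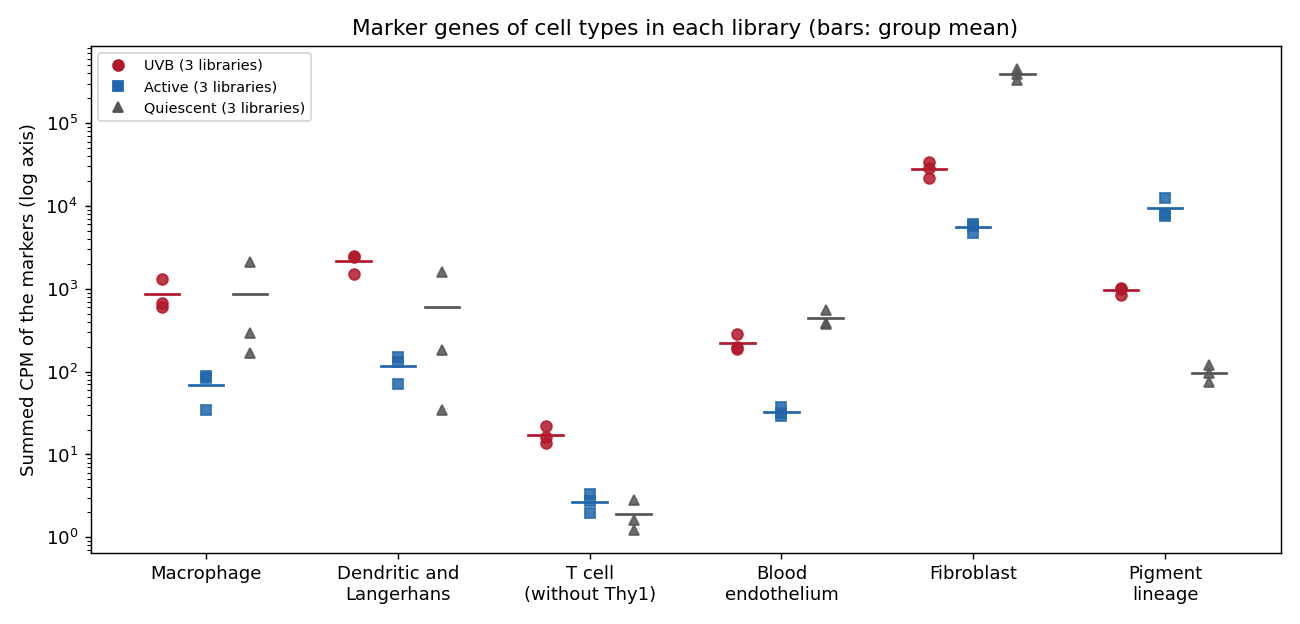
Summed CPM (log axis) of fixed marker genes of 6 cell types, with 1 point per library and a bar at each group mean, UVB left, Active in the middle and Quiescent right. Quiescent replicate 2 is the highest of all 9 libraries for macrophage markers, at 2117 CPM, and fibroblast markers are highest in the Quiescent libraries.

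Together the 57 genes held 1102, 674 and 1333 CPM in UVB, 330, 342 and 494 CPM in Active, and 1557, 3411 and 1283 CPM in Quiescent libraries. The sum was lower in every Active library than in any other. In Active against Quiescent, falls were called in 30.4% of the tested members, close to the 29.2% of all genes tested. Rises were called in 4.35%, against 29.1% of all genes. In UVB against Active, 45.2% of ligands and 60.0% of receptors were called higher, against 14.8% of all genes. None was called lower, against 9.19% of all genes. In UVB against Quiescent, 8 of 15 receptors were called higher and 2 lower, or 53.3% and 13.3%, against 25.8% and 23.2% of all genes. Ligands were called higher there in 22.6%, against 25.8% of all genes, and lower in 12.9%, against 23.2%. Enough fragments for a test were found for 46 members, 31 ligands and 15 receptors, of 15078 genes tested.

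In Active against Quiescent, 2 of the 46 members rose and 14 fell at an adjusted p under 0.05, or 4.35% and 30.4%. Over all genes tested 58.3% were called, 29.1% higher and 29.2% lower, and the median log2 fold change was -1.12 for the members and 0.007 for all genes. In UVB against Quiescent, 15 rose and 6 fell, or 32.6% and 13% of the members, against 25.8% and 23.2% of all genes, 49.0% together, with a median of 0.52 for the members and 0.021 for all genes. In UVB against Active, 23 of the 46 members rose and 0 fell, against 14.8% of all genes called higher and 9.19% called lower, 24.0% together, with a median of 2.05 for the members and 0.014 for all genes. No member was called lower in UVB than in Active by edgeR, by DESeq2 or by limma on FPKM, and none had an unadjusted p under 0.05 in that direction in any of these. The libraries of the groups did not overlap, in Active against Quiescent, for 4 members that were higher and 12 that were lower, against 33.5% and 32.7% of all genes. In UVB against Quiescent this held for 17 and 6 members, against 30.2% and 27.4% of all genes, and in UVB against Active for 31 and 1, against 25.0% and 21.7%. The comparisons share libraries, so their counts are not independent of each other.

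Ligands and receptors were called in different shares. In Active against Quiescent 12 of 31 ligands fell and 2 rose, and 2 of 15 receptors fell and 0 rose. In UVB against Quiescent 8 of 15 receptors rose and 2 fell, with a median log2 fold change of 2.64, and 7 of 31 ligands rose and 4 fell, with a median of 0.11. In UVB against Active 9 of 15 receptors and 14 of 31 ligands rose. Over all genes 29.1% rose and 29.2% fell in Active against Quiescent, and 25.8% and 23.2% in UVB against Quiescent. In UVB against Active these shares were 14.8% and 9.19%. The falls in Active against Quiescent were 38.7% of ligands and 13.3% of receptors. The difference between ligands and receptors was not tested. Leaving out Quiescent replicate 2 changed these counts: 9 members then fell in Active against Quiescent, 23 rose and 4 fell in UVB against Quiescent, and 27 rose in UVB against Active. Over all genes these counts were 4026, 3865, 3248 and 2326, against 4396, 3895, 3498 and 2226 with all libraries. For UVB against Quiescent, 10 rose without UVB replicate 1 or without Quiescent replicate 1, where 3214 and 3372 of all genes rose. For UVB against Active, 14 rose without UVB replicate 1, and 12, 11 and 13 without Active replicates 1, 2 and 3. Over all genes 1395, 1215, 999 and 1494 rose in these fits, so calls became fewer in general. For Active against Quiescent, 1 member rose without Active replicate 1 or without Quiescent replicate 1, where 3919 and 4097 of all genes rose, against 4390 with all libraries. For UVB against Quiescent, 4 fell without UVB replicate 1 or 2, where 2687 and 2741 of all genes fell.

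**Figure D2:**
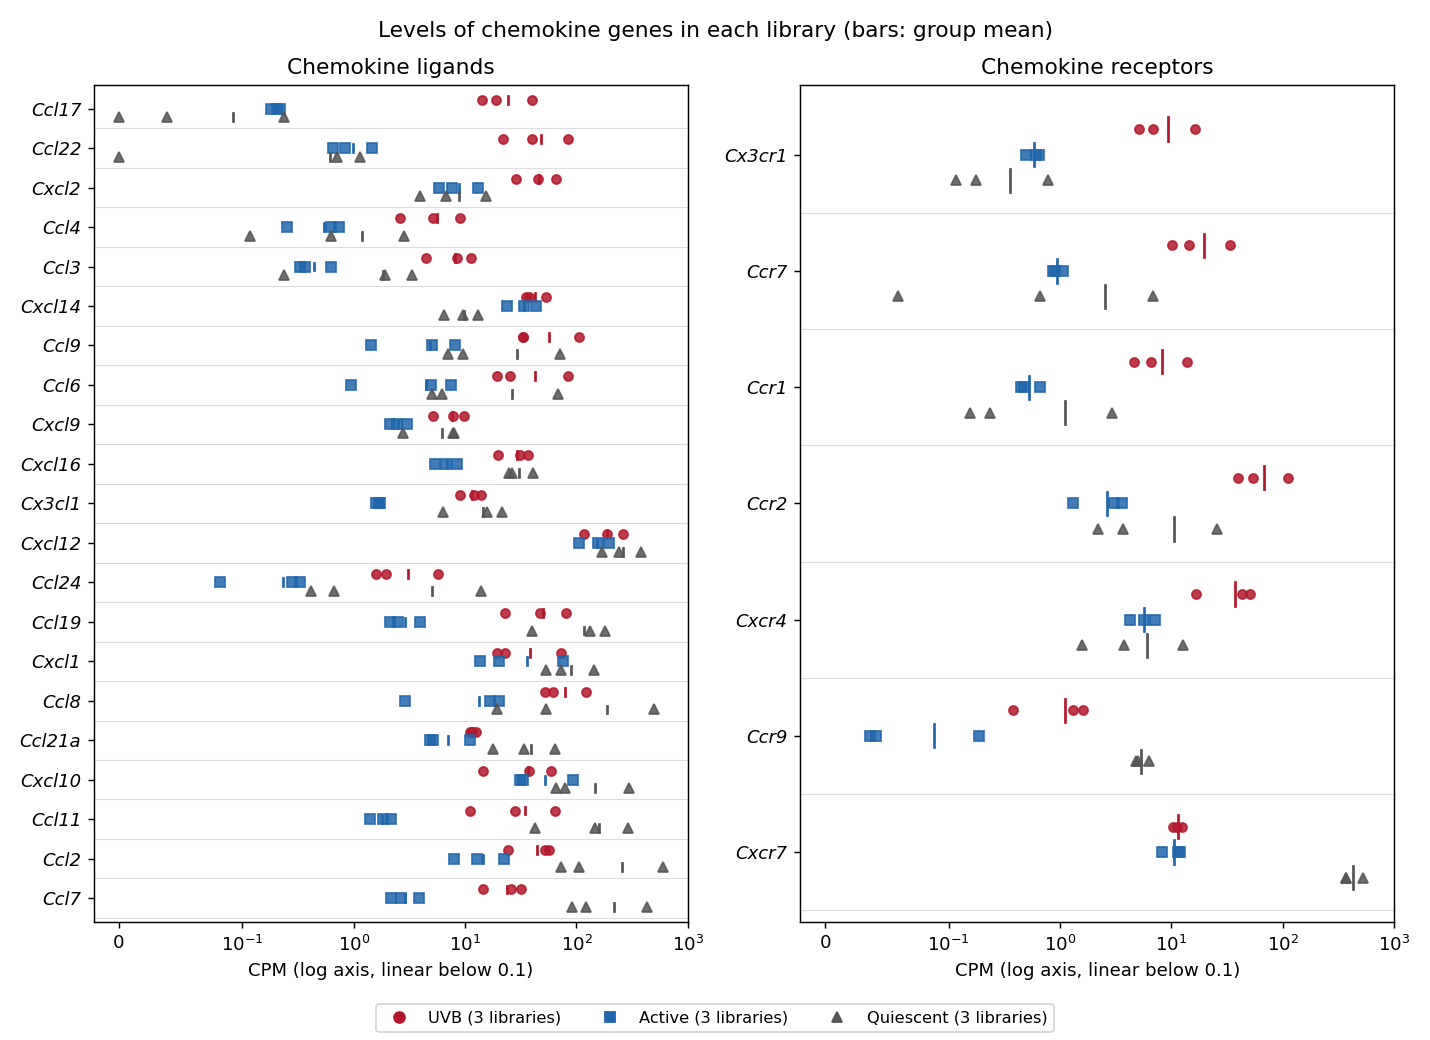
CPM in each library (log axis, linear below 0.1) of 28 members, 21 ligands and 7 receptors, in rows ordered by the ratio of Quiescent to UVB means. Points are libraries, with UVB above Active above Quiescent in each row, and short bars are group means. Ccl17 and Ccl22 lie at 14.1 CPM or more in UVB libraries and at 1.46 CPM or less in all others, and Cxcr7 lies at 372 CPM or more in Quiescent libraries and at 12.5 CPM or less in all others.

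**Figure D3:**
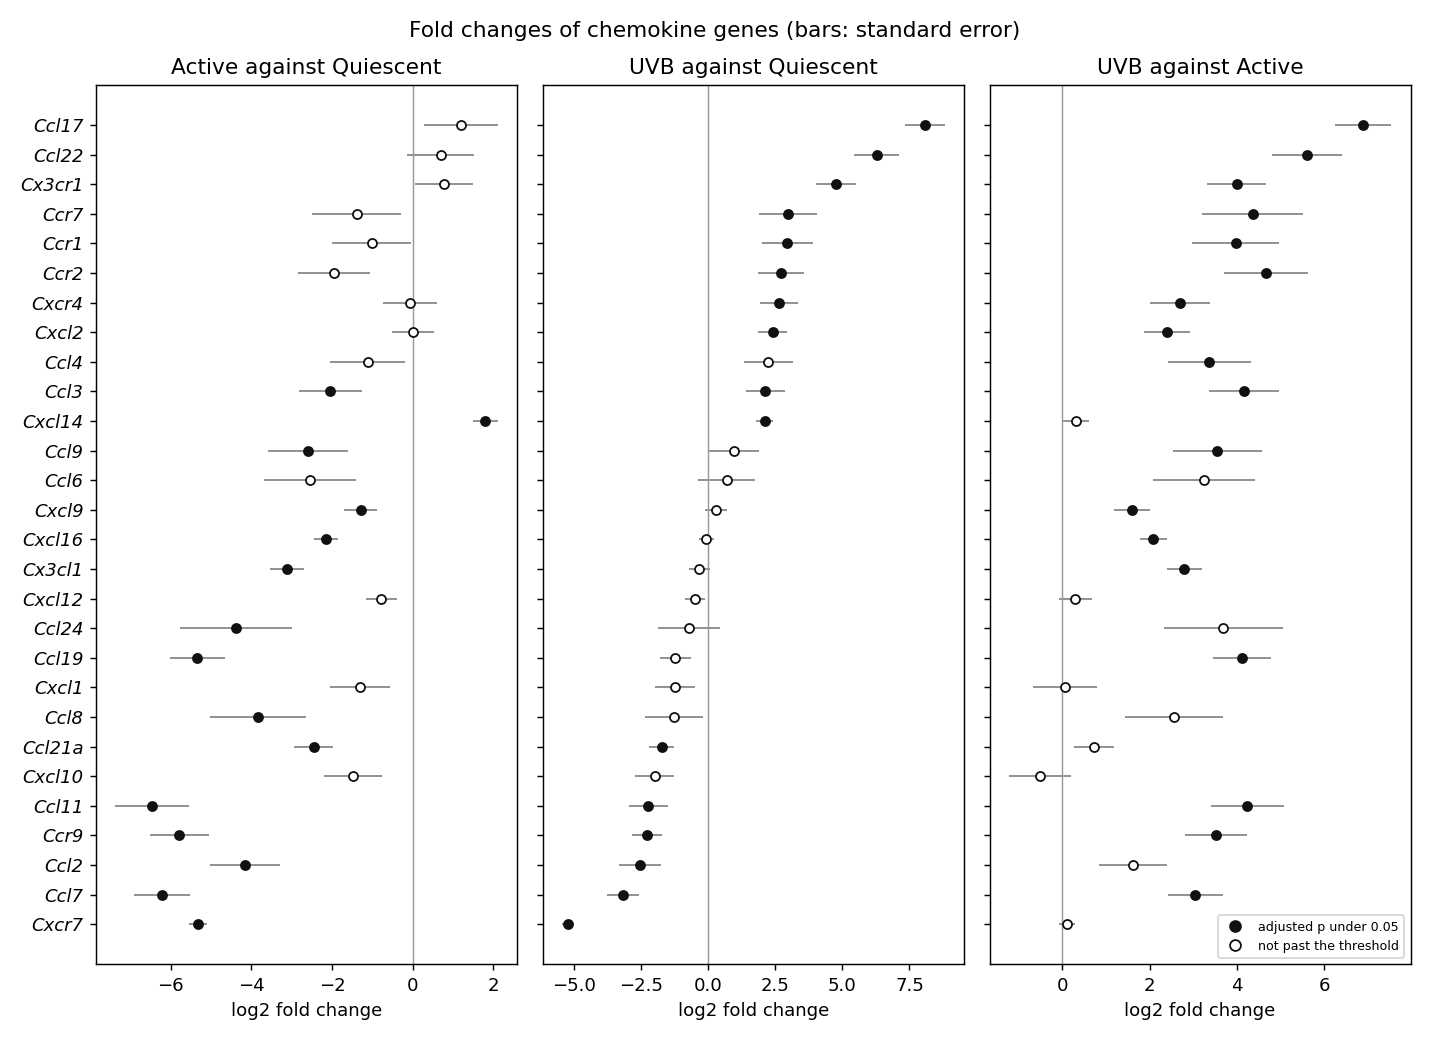
Log2 fold change with its standard error from edgeR for the same 28 members in 3 comparisons, each panel with its own axis range. Filled points passed an adjusted p of 0.05, open points did not. Most points lie left of 0 in Active against Quiescent, and no filled point lies left of 0 in UVB against Active.

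Per length of transcript, which allows genes to be compared, the most abundant members differed between groups. The authors' FPKM, fragments scaled by transcript length and library total, averaged 239 ± 108 for Ccl8, 91.3 ± 51.9 for Ccl19 and 78.0 ± 40.2 for Cxcl12 in UVB (SD, n = 3). In Active the highest were Cxcl10 at 55.9 ± 37.2, Cxcl12 at 48.6 ± 11 and Cxcl1 at 46.2 ± 42.9 FPKM (SD, n = 3), which do not differ beyond their spread. In Quiescent they were Ccl8 at 581 ± 812, Ccl2 at 408 ± 461, Ccl7 at 346 ± 300 and, as the first receptor, Cxcr7 at 219 ± 46.6 FPKM (SD, n = 3). The order of the first 3 in Quiescent rests on 1 library, since their SDs are about as large as their means.

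The monocyte and eosinophil attractants of chromosome 11 included the most abundant ligands of Quiescent cells, Ccl8, Ccl2 and Ccl7. In the GRCm38 (mm10) annotation of GENCODE, Ccl2, Ccl7, Ccl11, Ccl12 and Ccl8 lie side by side at 82035571 to 82116799 on chromosome 11, on the plus strand, followed by Ccl1. Ccl2, Ccl7 and Ccl12 attract monocytes through Ccr2, Ccl11 attracts eosinophils through Ccr3, and Ccl8 acts in the mouse on Ccr8. Of the 5 tested genes of this cluster, 4 fell and 0 rose in Active against Quiescent, 3 fell and 0 rose in UVB against Quiescent, and 3 rose and 0 fell in UVB against Active. Of all genes, 29.2% fell in Active and 23.2% in UVB against Quiescent, and 14.8% rose in UVB against Active.

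Ccl7 had 25.9, 14.6 and 31.5 CPM in UVB, 2.18, 2.68 and 3.84 CPM in Active, and 91.5, 433 and 123 CPM in Quiescent libraries. The 3 groups did not overlap, with UVB between the others. Ccl7 was 74.7-fold lower in Active than Quiescent (log2 fold change -6.22 ± 0.70, SE, adjusted p = 9.9e-05), 8.99-fold lower in UVB than Quiescent (adjusted p = 0.0025) and 8.31-fold higher in UVB than Active (adjusted p = 0.011). Without Quiescent replicate 2 the first 2 folds were 37.1 and 4.47 and both calls held, and without Active replicate 2 the call between UVB and Active was lost, at an adjusted p of 0.0507. In bulk libraries such as these, fewer cells of a type and less RNA per cell cannot be told apart.

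Ccl11 had 27.9, 11.1 and 63.6 CPM in UVB, 1.40, 2.18 and 1.84 CPM in Active, and 148, 288 and 42.8 CPM in Quiescent libraries. The Active libraries were all below the others, while UVB replicate 3 was above Quiescent replicate 3. The fold was 88.6 lower in Active than Quiescent (log2 fold change -6.47 ± 0.91, SE, adjusted p = 3.5e-04) and 19.0 higher in UVB than Active (adjusted p = 0.0095). Without Quiescent replicate 2 the first was 52.9, and without UVB replicate 3 the second was 10.8. UVB was 4.67-fold lower than Quiescent (adjusted p = 0.033), a call lost without UVB replicate 1 or 2 or Quiescent replicate 1 or 2, at adjusted p of 0.099, 0.080, 0.059 and 0.113. That fold was 2.79 without Quiescent replicate 2 and 8.17 without UVB replicate 3.

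Ccl2 had 56.7, 24.5 and 52.7 CPM in UVB, 12.9, 7.94 and 22.3 CPM in Active, and 73.0, 595 and 105 CPM in Quiescent libraries. Its Quiescent libraries were above all others. It was 17.9-fold lower in Active than Quiescent (log2 fold change -4.16 ± 0.86, SE, adjusted p = 0.0029), and 6.17-fold lower without Quiescent replicate 2, where the call held. It was 5.77-fold lower in UVB than Quiescent (adjusted p = 0.027), but not called without UVB replicates 1, 2 or 3 or without Quiescent replicate 2, at adjusted p of 0.060, 0.089, 0.0538 and 0.112, the last with a fold of 1.99. Between UVB and Active the test did not pass (log2 fold change 1.63 ± 0.78, SE, adjusted p = 0.162), though it did without Quiescent replicate 2 (adjusted p = 0.030).

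Ccl8 had 52.4, 61.9 and 121 CPM in UVB, 16.6, 20.1 and 2.90 CPM in Active, and 53.3, 492 and 19.4 CPM in Quiescent libraries. Quiescent replicate 2 was far above the rest, and the lowest Quiescent library lay within the Active range. Ccl8 was called 14.2-fold lower in Active than Quiescent (adjusted p = 0.022), a call lost without Active replicate 1 or 3 (adjusted p = 0.057 and 0.060) and without Quiescent replicate 2 (2.75-fold, adjusted p = 0.131). UVB against Active had a log2 fold change of 2.56 ± 1.13 (SE, adjusted p = 0.134), which passed without Quiescent replicate 2 (adjusted p = 0.033).

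Ccl12 had 2.17 to 4.83 CPM in UVB and 0.0725 to 0.405 CPM in Active libraries, and 0.235, 3.04 and 0.177 CPM in Quiescent libraries. It rose 16.8-fold in UVB against Active (adjusted p = 0.033), and the call was lost without any single UVB or Active library, at adjusted p of 0.0539 to 0.118, with a fold of 40.4 without Active replicate 1. UVB against Quiescent did not pass with edgeR and all libraries (adjusted p = 0.229), and did with limma on log2(FPKM + 1) (adjusted p = 0.0493) and without Quiescent replicate 2 (15.5-fold higher, adjusted p = 0.0056). Active against Quiescent (log2 fold change -2.52 ± 1.13, SE, adjusted p = 0.086) passed with DESeq2 (adjusted p = 0.030) and without Quiescent replicate 1 or 3 (adjusted p = 0.0472 and 0.043). Ccl24, another eosinophil attractant, had 1.58, 1.95 and 5.67 CPM in UVB, 0.280, 0.326 and 0.0818 CPM in Active, and 0.665, 14.0 and 0.413 CPM in Quiescent libraries. Its fall in Active against Quiescent (log2 fold change -4.39 ± 1.39, SE, adjusted p = 0.023) rested on Quiescent replicate 2, without which the adjusted p was 0.222 and the fold 2.32. It was also lost without Active replicates 1, 2 or 3, at adjusted p of 0.065, 0.060 and 0.073, and with limma on log2(FPKM + 1), at 0.165. UVB was 5.57-fold higher than Quiescent without Quiescent replicate 2 (adjusted p = 0.029), where all libraries gave a log2 fold change of -0.70 ± 1.15 (SE).

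Ccl2, Ccl7, Ccl8 and Ccl24 were highest in Quiescent replicate 2, as were the macrophage markers given above. Those markers were higher in Quiescent replicate 1 (296 CPM) than 3 (167 CPM), and so were Ccl8 and Ccl24. Ccl2 and Ccl7 were lower there, at 73 and 91.5 CPM against 105 and 123 CPM. Fibroblast markers were highest in the same group as Ccl2, Ccl7 and Ccl11. Within that group their sum was lowest in replicate 2 (333985 CPM), where Ccl2, Ccl7 and Ccl11 were highest. The part of these cell types in the differences was not tested.

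The receptors of these ligands were distributed differently from the ligands. Ccr2, the receptor of monocytes, had 54.2, 39.4 and 111 CPM in UVB, 3.05, 3.59 and 1.31 CPM in Active, and 3.64, 25.6 and 2.18 CPM in Quiescent libraries. All UVB libraries were above all others. Ccr2 rose 6.57-fold in UVB against Quiescent (log2 fold change 2.72 ± 0.87, SE, adjusted p = 0.029) and 25.5-fold in UVB against Active (adjusted p = 0.011). The first call was lost without UVB replicate 1 or 3 or Quiescent replicate 1 or 3, at adjusted p of 0.0503, 0.079, 0.083 and 0.058, and was 23.1-fold without Quiescent replicate 2 (adjusted p = 9.5e-04). In Active against Quiescent it passed only without Quiescent replicate 3 (adjusted p = 0.032). Ccr3, the receptor of Ccl11 and Ccl24, had 5, 6 or 7 fragments in each UVB library, 1 to 3 in Active and 2 to 5 in Quiescent libraries, too few to test.

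Ccr1, a receptor of Ccl3, Ccl5 and, in the mouse, Ccl6 and Ccl9, had 6.52, 4.62 and 13.8 CPM in UVB, 0.654, 0.471 and 0.450 CPM in Active, and 0.156, 2.92 and 0.236 CPM in Quiescent libraries. It rose 7.71-fold in UVB against Quiescent (adjusted p = 0.031) and 15.6-fold in UVB against Active (adjusted p = 0.023). The UVB libraries were again above all others. Against Quiescent the call was lost without UVB replicate 1 or 3 or Quiescent replicate 1 or 3, at adjusted p of 0.0531, 0.084, 0.063 and 0.070, and the fold was 42.5 without Quiescent replicate 2. Against Active it was lost without UVB replicate 3 and without Active replicates 1, 2 or 3, at adjusted p of 0.057, 0.071, 0.089 and 0.069.

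The ligands of Ccr1 lie in another cluster of chromosome 11, of which 2 of 5 tested genes fell and 0 rose in Active against Quiescent, 2 rose and 0 fell in UVB against Quiescent, and 3 rose and 0 fell in UVB against Active. Of all genes, 29.2% fell in Active and 25.8% rose in UVB against Quiescent, and 14.8% rose in UVB against Active. Ccl3 had 8.38, 4.42 and 11.3 CPM in UVB, 0.623, 0.363 and 0.327 CPM in Active, and 1.92, 3.34 and 0.236 CPM in Quiescent libraries. It rose 18-fold in UVB against Active (log2 fold change 4.17 ± 0.80, SE, adjusted p = 0.0085), and the call held whichever library was left out. It also rose 4.38-fold in UVB against Quiescent (adjusted p = 0.037), lost without UVB replicate 1 or 3, Active replicate 2 or Quiescent replicate 1, at adjusted p of 0.081, 0.093, 0.0532 and 0.086, and 7.17-fold without Quiescent replicate 2. Its fall in Active against Quiescent (4.11-fold, adjusted p = 0.0479) was called in all libraries and without Quiescent replicate 3, and missed the threshold without each other library, at adjusted p of 0.0504 to 0.180, with a fold of 2.50 without Quiescent replicate 2.

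Ccl4 had 8.95, 2.60 and 5.20 CPM in UVB, 0.623, 0.254 and 0.736 CPM in Active, and 0.626, 2.80 and 0.118 CPM in Quiescent libraries. It rose 10.3-fold in UVB against Active (adjusted p = 0.033), lost without UVB replicate 1 or 3 or any Active library, at adjusted p of 0.057 to 0.116. UVB against Quiescent gave 2.25 ± 0.90 on the log2 scale (SE, adjusted p = 0.064), called by DESeq2 (adjusted p = 0.023) and without Quiescent replicate 2 (14.0-fold, adjusted p = 0.0075). Ccl5, an attractant of T cells, had 1.71 to 2.19 CPM in UVB, 0.531 to 1.12 CPM in Active and 0.236 to 1.07 CPM in Quiescent libraries. It rose 3.31-fold in UVB against Quiescent (adjusted p = 0.024), lost without UVB replicate 1 or Quiescent replicate 1 (adjusted p = 0.062 and 0.073), and 5.19-fold without Quiescent replicate 2. UVB against Active did not pass for Ccl5 (log2 fold change 1.30 ± 0.50, SE, adjusted p = 0.091). It did with DESeq2 (adjusted p = 0.0496) and with limma on log2(FPKM + 1) (adjusted p = 0.042). It also passed with only these groups in the fit (adjusted p = 0.037) and without Quiescent replicate 3 (adjusted p = 0.0491).

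Ccl9 had 33.2, 32.8 and 105 CPM in UVB, 5.05, 8.05 and 1.43 CPM in Active, and 9.66, 71.3 and 7.09 CPM in Quiescent libraries. Ccl6, its neighbour in the mouse genome, had 19.3, 25.5 and 83.1 CPM in UVB, 4.96, 7.47 and 0.940 CPM in Active, and 6.14, 67.9 and 5.08 CPM in Quiescent libraries. Both were highest in UVB replicate 3 and in Quiescent replicate 2, the libraries with the highest macrophage sums in their groups, and the part of these cells was not tested. Ccl9 rose 11.7-fold in UVB against Active (adjusted p = 0.037), lost without UVB replicate 1 or 3 or any Active library, at adjusted p of 0.061 to 0.108, with a fold of 6.79 without UVB replicate 3. It fell in Active against Quiescent at the threshold (adjusted p = 0.0498), and this was lost without UVB replicate 1 or 2, any Active library or Quiescent replicate 2, at adjusted p of 0.059 to 0.387, with a fold of 1.72 without Quiescent replicate 2. Ccl6 passed in no comparison with edgeR and all libraries, and in UVB against Active (log2 fold change 3.25 ± 1.16, SE, adjusted p = 0.073) it passed with DESeq2 (adjusted p = 0.027) and with only the UVB and Active libraries in the fit (adjusted p = 0.029). Without Quiescent replicate 2, Ccl9 and Ccl6 were called 6.78-fold and 7.57-fold higher in UVB than Quiescent, and Ccl6 was called in UVB against Active (adjusted p = 0.021), while without Quiescent replicate 3 Ccl6 was called lower in Active than Quiescent (adjusted p = 0.0470).

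Ccl17 and Ccl22 had the largest rises in UVB cells. Both are made mainly by dendritic cells and macrophages and attract T cells that carry Ccr4. They lie on either side of Cx3cl1 on the plus strand of chromosome 8, Ccl22 at 94745590 to 94751699 and Ccl17 at 94810453 to 94812036 (GRCm38). The 250 bases before the RefSeq start sites of these neighbours, from chr8:94810203-94810452 and chr8:94745434-94745683 of GRCm38.p6, are shown because the genes moved together. They were searched on both strands for the NF-kB consensus, the AP-1 site TGANTCA, the interferon-stimulated response element (ISRE) and the TATA box TATAAA, and hold none of these letters.
Ccl17: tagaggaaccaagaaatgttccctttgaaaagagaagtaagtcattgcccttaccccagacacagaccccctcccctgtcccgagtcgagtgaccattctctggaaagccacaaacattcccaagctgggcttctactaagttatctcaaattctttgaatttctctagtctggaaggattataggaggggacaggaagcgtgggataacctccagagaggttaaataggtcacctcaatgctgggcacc
Ccl22: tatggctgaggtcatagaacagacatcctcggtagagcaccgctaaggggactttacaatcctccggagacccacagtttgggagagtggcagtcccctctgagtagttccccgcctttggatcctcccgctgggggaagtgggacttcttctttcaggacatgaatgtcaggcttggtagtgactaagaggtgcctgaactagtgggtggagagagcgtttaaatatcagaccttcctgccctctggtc

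Ccl17 had 40.1, 14.1 and 18.8 CPM in UVB, 0.218, 0.181 and 0.204 CPM in Active, and 0.0391, 0.238 and 0 CPM in Quiescent libraries. In fragments these were 1274, 413 and 558 in UVB, 7, 5 and 5 in Active, and 1, 4 and 0 in Quiescent libraries. It rose 118-fold in UVB against Active (log2 fold change 6.88 ± 0.65, SE, adjusted p = 6.4e-04) and 269-fold in UVB against Quiescent (log2 fold change 8.07 ± 0.74, SE, adjusted p = 6.3e-05). The second fold is only a guide to size, since it rests on 5 Quiescent fragments, and without Quiescent replicate 2 it was fitted at 872. Both calls held whichever library was left out. Active against Quiescent gave 1.19 ± 0.92 on the log2 scale (SE, adjusted p = 0.294).

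Ccl22 had 83.9, 39.9 and 21.8 CPM in UVB, 1.46, 0.834 and 0.654 CPM in Active, and 0.704, 1.13 and 0 CPM in Quiescent libraries. It rose 48.5-fold in UVB against Active (adjusted p = 0.0027) and 78.0-fold in UVB against Quiescent (log2 fold change 6.28 ± 0.85, SE, adjusted p = 4.5e-04). Without UVB replicate 1 these folds were 30.9 and 49.8, and without Quiescent replicate 2 the second was 120, all past the threshold. The receptor Ccr4 showed no such difference at this depth: it had 9, 8 and 10 fragments in UVB, 4, 13 and 6 in Active, and 11, 6 and 0 in Quiescent libraries, and was not tested. Of the 6 dendritic and Langerhans markers, 5 rose in UVB against Active, where 14.8% of all genes did, and 2 rose in UVB against Quiescent, where 25.8% of all genes did. Cd207 of Langerhans cells was at 22.4, 8.01 and 9.28 CPM in UVB, 2.74, 1.78 and 1.64 CPM in Active, and 0.782, 2.98 and 0 CPM in Quiescent libraries. Quiescent replicate 2, with a marker sum of 1612 CPM, had 0.238 CPM of Ccl17 and 1.13 CPM of Ccl22. The part of dendritic cells in the rise of Ccl17 and Ccl22 was not tested.

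**Figure D4:**
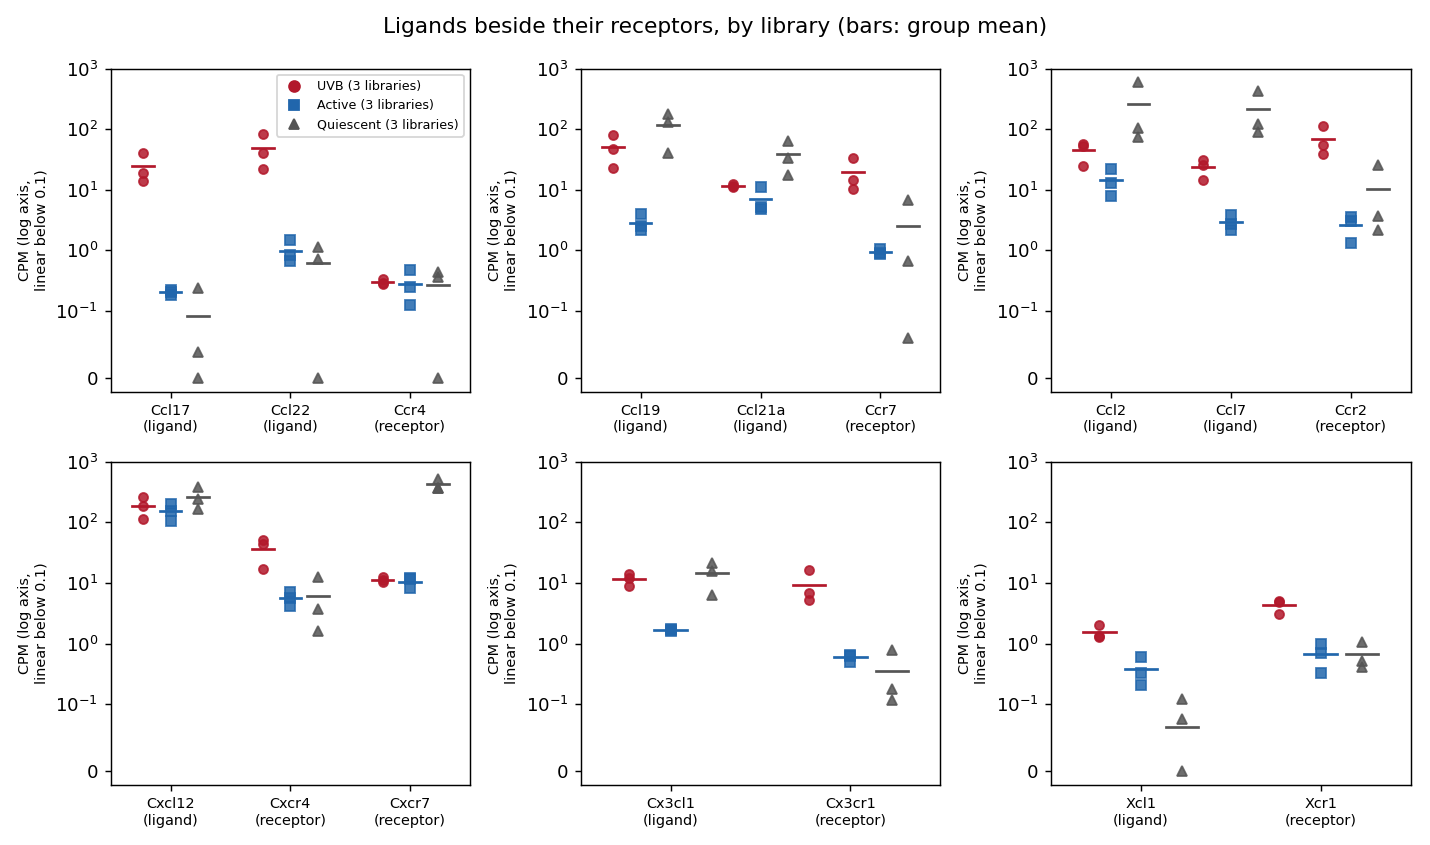
CPM in each library (log axis, linear below 0.1) of ligands and of receptors that bind them, with bars at the group means, UVB left, Active in the middle and Quiescent right. Ccl17 and Ccl22 are high in UVB while Ccr4 stays below 0.5 CPM in all 9 libraries, and Cxcr4 is highest in UVB while Cxcr7 is highest in Quiescent.

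Ccr7 and its ligands moved differently. Ccr7 brings mature dendritic cells and naive T cells to lymph nodes, and Ccl19 and Ccl21a are its ligands. Ccr7 had 33.9, 14.3 and 10.1 CPM in UVB, 0.873, 0.907 and 1.06 CPM in Active, and 0.665, 6.85 and 0.0591 CPM in Quiescent libraries. All UVB libraries were above the others. It rose 20.5-fold in UVB against Active (adjusted p = 0.028), lost without UVB replicate 1 (12.8-fold, adjusted p = 0.087) or Active replicates 1, 2 or 3 (adjusted p = 0.094, 0.099 and 0.075). It rose 7.81-fold in UVB against Quiescent at the threshold (adjusted p = 0.0482). Without Quiescent replicate 2 that fold was 48.4 (adjusted p = 0.0014), and without each other library except UVB replicate 3 the call was lost, at adjusted p of 0.059 to 0.160, with a fold of 4.88 without UVB replicate 1.

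Ccl19 had 47.1, 22.6 and 81.3 CPM in UVB, 3.96, 2.50 and 2.13 CPM in Active, and 132, 179 and 40.1 CPM in Quiescent libraries. It was 40.5-fold lower in Active than Quiescent (log2 fold change -5.34 ± 0.69, SE, adjusted p = 2.2e-04) and 17.4-fold higher in UVB than Active (adjusted p = 0.0042). Both calls held whichever library was left out. UVB against Quiescent did not pass (log2 fold change -1.22 ± 0.57, SE, adjusted p = 0.108), though it did without UVB replicate 3 or Quiescent replicate 3 (adjusted p = 0.0452 and 0.023). Ccl21a had 11.6, 11 and 12.5 CPM in UVB, 11.1, 5.15 and 4.86 CPM in Active, and 64.6, 33.8 and 17.7 CPM in Quiescent libraries. It fell 5.49-fold in Active (adjusted p = 0.0022) and 3.32-fold in UVB (adjusted p = 0.014) against Quiescent, where without Quiescent replicate 1 the folds were 3.64 and 2.2, that of UVB no longer called (adjusted p = 0.0516). Ccl21a has near-identical copies, listed as Ccl21b and Ccl21c with 0 fragments in all libraries, and its fragments were not all whole, so its level is uncertain.

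Of the CXC ligands, Cxcl1 and Cxcl2 attract neutrophils through Cxcr2 and lie next to each other on chromosome 5. Cxcl2 had 65.4, 28.9 and 44.7 CPM in UVB, 7.60, 5.77 and 13 CPM in Active, and 6.72, 15.5 and 3.96 CPM in Quiescent libraries. Every UVB library was above every other. Cxcl2 rose 5.28-fold in UVB against Active (log2 fold change 2.40 ± 0.53, SE, adjusted p = 0.014), lost without Active replicate 1 or 2 (adjusted p = 0.058 and 0.064), and 5.33-fold in UVB against Quiescent (adjusted p = 0.0055), where the fold was 8.60 without Quiescent replicate 2. Cxcl1 had 72.0, 19.4 and 22.7 CPM in UVB, 20.1, 13.5 and 75.3 CPM in Active, and 53.2, 143 and 72.6 CPM in Quiescent libraries. Its groups overlapped, and no comparison passed with all libraries (log2 fold change 0.07 ± 0.73, SE, adjusted p = 0.956 in UVB against Active). Without Active replicate 3, Cxcl1 was called 5.24-fold lower in Active than Quiescent (adjusted p = 0.020).

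The 250 bases before the starts of Cxcl1, Cxcl2 and Cxcl10 are shown because they hold a match to the NF-kB consensus while only Cxcl2 rose in UVB cells. Capitals mark every match to the motifs named above, on either strand. Cxcl1 (chr5:90890995-90891244) and Cxcl2 (chr5:90903649-90903898), both on the plus strand, hold the same overlapping pair of NF-kB matches, starting 71 and 97 bases before the start site. Cxcl10 (chr5:92348890-92349139, minus strand) holds an interferon response element 213 bases, NF-kB matches 159 and 103 bases and an AP-1 site 74 bases before its start.
Cxcl1: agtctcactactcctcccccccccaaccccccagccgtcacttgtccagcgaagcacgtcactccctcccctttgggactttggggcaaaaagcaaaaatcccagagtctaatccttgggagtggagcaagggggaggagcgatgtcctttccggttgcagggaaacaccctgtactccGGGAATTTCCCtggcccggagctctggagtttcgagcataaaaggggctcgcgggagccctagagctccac
Cxcl2: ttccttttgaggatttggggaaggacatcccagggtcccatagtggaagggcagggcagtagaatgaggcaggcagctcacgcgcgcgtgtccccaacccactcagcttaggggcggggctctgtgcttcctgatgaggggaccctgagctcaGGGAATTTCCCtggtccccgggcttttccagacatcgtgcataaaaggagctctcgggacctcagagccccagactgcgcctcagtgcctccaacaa
Cxcl10: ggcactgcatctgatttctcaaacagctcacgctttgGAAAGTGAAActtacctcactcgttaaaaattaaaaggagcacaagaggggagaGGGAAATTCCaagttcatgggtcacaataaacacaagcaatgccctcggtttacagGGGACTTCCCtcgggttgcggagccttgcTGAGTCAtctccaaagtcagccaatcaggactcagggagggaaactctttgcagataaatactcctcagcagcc

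A RefSeq promoter was found for 41 of the 57 members. The NF-kB consensus matched in 8 of them (19.5%), against 3.90% of all 32851 promoters of the same length. The AP-1 site matched in 6 (14.6%, against 6.75%), the interferon response element in 3 (7.32%, against 2.98%) and the TATA box in 12 (29.3%, against 12.4%). A few members have more than 1 promoter entry, 48 entries for the 41 members, and a member counted as matched if any of its entries matched. The shares of all promoters count each entry separately. The units therefore differ, in a way that can raise the shares of the members, and the difference in shares was not tested. A match is a description of letters, not of a bound site.

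Cxcl10, induced by interferons and read by Cxcr3, had 58.6, 37.5 and 14.6 CPM in UVB, 33.4, 30.9 and 93.7 CPM in Active, and 65.3, 296 and 79.3 CPM in Quiescent libraries. UVB was below every Quiescent library, with a log2 fold change of -1.99 ± 0.74 (SE) that missed the threshold (adjusted p = 0.0504) and passed without Active replicate 3, Quiescent replicate 1 or Quiescent replicate 3, at adjusted p of 0.042, 0.039 and 0.045. Exons of Cxcl10 overlap Art3 on the other strand, and the strand setting of the counting is not given. Cxcl9, a related ligand of Cxcr3, had 7.82, 9.76 and 5.13 CPM in UVB, 2.99, 2.43 and 2.13 CPM in Active, and 7.78, 7.87 and 2.78 CPM in Quiescent libraries. It rose 3.00-fold in UVB against Active (adjusted p = 0.026), lost without UVB replicate 1 or 2 or any Active library, at adjusted p of 0.063 to 0.092. It fell 2.44-fold in Active against Quiescent (adjusted p = 0.025), lost without Active replicate 2 or 3 or Quiescent replicate 1 or 2, at adjusted p of 0.072 to 0.084. Cxcr3 had 1.20 to 1.65 CPM in UVB, 0.327 to 1.03 CPM in Active and 0.118 to 3.04 CPM in Quiescent libraries and passed in UVB against Quiescent without Quiescent replicate 2, 5.42-fold higher (adjusted p = 0.022).

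Cxcl14, a chemokine made steadily by epithelia, was the only ligand of more than 5 CPM that rose in Active against Quiescent. It had 35.1, 37.7 and 53.3 CPM in UVB, 43.6, 34.0 and 23.8 CPM in Active, and 13, 6.44 and 9.63 CPM in Quiescent libraries. The UVB and Active libraries lay above all Quiescent libraries and overlapped each other. The rise was 3.47-fold in Active (log2 fold change 1.8 ± 0.31, SE, adjusted p = 0.0011) and 4.32-fold in UVB (log2 fold change 2.11 ± 0.31, SE, adjusted p = 7.1e-04), and both calls held whichever library was left out. UVB against Active gave 0.31 ± 0.30 (SE, adjusted p = 0.476). The 5 keratinocyte markers summed to 543, 214 and 278 CPM in UVB, 950, 795 and 609 CPM in Active, and 1861, 500 and 102 CPM in Quiescent libraries. Against Quiescent 0 of them rose in Active or UVB, where 29.1% and 25.8% of all genes did. The part of epithelial cells in the rise of Cxcl14 was not tested.

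Cxcl16, a membrane-bound ligand of Cxcr6, had 36.9, 19.8 and 30.9 CPM in UVB, 8.51, 5.33 and 6.70 CPM in Active, and 26.4, 40.9 and 24.7 CPM in Quiescent libraries. It was 4.47-fold lower in Active than Quiescent (log2 fold change -2.16 ± 0.30, SE, adjusted p = 3.1e-04) and 4.26-fold higher in UVB than Active (adjusted p = 0.0027), whichever library was left out. UVB and Quiescent libraries overlapped (log2 fold change -0.07 ± 0.28, SE, adjusted p = 0.858). Exons of Cxcl16 overlap Zmynd15, so reads of the pair may not have been told apart. Its receptor Cxcr6 had 2.24, 1.58 and 1.52 CPM in UVB, 0.686, 0.508 and 0.409 CPM in Active, and 0.117, 0.358 and 0.295 CPM in Quiescent libraries. Cxcr6 rose 7.06-fold in UVB against Quiescent (adjusted p = 0.0015) and 3.29-fold in UVB against Active (adjusted p = 0.023), the second lost without UVB replicate 1 or any Active library, at adjusted p of 0.0530 to 0.090.

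Cxcl12, which keeps stem and progenitor cells in their niches, was abundant in every library, and its receptors Cxcr4 and Cxcr7 were high in different groups. Cxcl12 had 188, 116 and 261 CPM in UVB, 106, 156 and 198 CPM in Active, and 380, 241 and 168 CPM in Quiescent libraries. The groups overlapped and no comparison passed: the log2 fold change was -0.78 ± 0.38 (SE, adjusted p = 0.106) in Active and -0.48 ± 0.38 (SE, adjusted p = 0.319) in UVB against Quiescent. Without Quiescent replicate 3, and with limma on log2(FPKM + 1), the fall in Active was called (adjusted p = 0.0494 and 0.026).

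Cxcr7, the atypical receptor that takes up Cxcl12, had the smallest adjusted p of all members in both comparisons with Quiescent. It had 10.4, 11.3 and 12.5 CPM in UVB, 11.9, 8.23 and 11.5 CPM in Active, and 373, 372 and 529 CPM in Quiescent libraries. The fall was 40.2-fold in Active (log2 fold change -5.33 ± 0.22, SE, adjusted p = 1.6e-06) and 37.2-fold in UVB (log2 fold change -5.22 ± 0.22, SE, adjusted p = 2.1e-06), and held whichever library was left out. UVB and Active overlapped, with a log2 fold change of 0.11 ± 0.19 (SE, adjusted p = 0.707). The 6 fibroblast markers fell in both comparisons too, with median log2 fold changes of -6.80 in Active and -3.44 in UVB against Quiescent, and rose in UVB against Active with a median of 3.27. Of all genes, 29.2% fell in Active and 23.2% in UVB against Quiescent, and 14.8% rose in UVB against Active. The part of fibroblasts in the difference of Cxcr7 was not tested. Cxcr7 lies at 90203980 to 90216751 on the plus strand of chromosome 1, and the bases before its start (chr1:90203730-90203979), shown because the gene was the most abundant receptor, hold a TATAAA match, in capitals, 8 bases before the start.
Cxcr7: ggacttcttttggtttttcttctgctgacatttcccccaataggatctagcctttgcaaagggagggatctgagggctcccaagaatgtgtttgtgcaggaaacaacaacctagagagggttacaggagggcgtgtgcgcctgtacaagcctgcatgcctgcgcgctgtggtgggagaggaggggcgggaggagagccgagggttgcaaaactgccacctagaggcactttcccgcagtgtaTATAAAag

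Cxcr4, the signalling receptor of Cxcl12, had 43.4, 16.7 and 50.9 CPM in UVB, 5.64, 4.24 and 7.19 CPM in Active, and 3.75, 12.6 and 1.59 CPM in Quiescent libraries. The UVB libraries lay above all others. It rose 6.22-fold in UVB against Quiescent (log2 fold change 2.64 ± 0.70, SE, adjusted p = 0.013) and 13.5-fold without Quiescent replicate 2. It rose 6.5-fold in UVB against Active (adjusted p = 0.025), lost without UVB replicate 1 or 3 or Active replicates 1, 2 or 3, at adjusted p of 0.068, 0.060, 0.082, 0.096 and 0.056. Active against Quiescent gave -0.06 ± 0.67 (SE, adjusted p = 0.943).

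Cx3cl1, a membrane-bound ligand of endothelium and other barrier cells, had 13.9, 8.94 and 12.1 CPM in UVB, 1.59, 1.70 and 1.72 CPM in Active, and 15.6, 21.5 and 6.38 CPM in Quiescent libraries. It was 8.66-fold lower in Active than Quiescent (log2 fold change -3.11 ± 0.42, SE, adjusted p = 2.6e-04) and 6.94-fold higher in UVB than Active (adjusted p = 0.0031), whichever library was left out. UVB against Quiescent did not pass (log2 fold change -0.32 ± 0.38, SE, adjusted p = 0.514) except without Quiescent replicate 3 (adjusted p = 0.044). The 6 markers of blood endothelium fell in Active against Quiescent and rose in UVB against Active as well, and 5 of the 6 fell in UVB against Quiescent, where Cx3cl1 did not pass. Their sums were 187, 201 and 284 CPM in UVB, 37.2, 29.5 and 32 CPM in Active, and 553, 390 and 374 CPM in Quiescent libraries. Of all genes, 29.2% fell in Active and 23.2% in UVB against Quiescent, and 14.8% rose in UVB against Active. The part of endothelium was not tested.

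Its receptor Cx3cr1, found on monocytes, macrophages and T cells, had 6.78, 5.14 and 16.3 CPM in UVB, 0.499, 0.653 and 0.613 CPM in Active, and 0.117, 0.775 and 0.177 CPM in Quiescent libraries. It rose 27.2-fold in UVB against Quiescent (log2 fold change 4.77 ± 0.73, SE, adjusted p = 8.2e-04) and 15.9-fold in UVB against Active (adjusted p = 0.0052), whichever library was left out. Without UVB replicate 3 these folds were 17.2 and 10.1, and without Quiescent replicate 2 the first was 63.7. Quiescent replicate 2, with the highest macrophage sum, had 0.775 CPM of Cx3cr1, the highest of its group, and the part of macrophages in the differences was not tested. Without Quiescent replicate 2, Active was called 4.01-fold higher than Quiescent (adjusted p = 0.044). Exons of Cx3cr1 overlap Gm33858.

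Xcl1, made by T cells and natural killer cells, and its receptor Xcr1, found on cross-presenting dendritic cells, both rose in UVB cells. Xcl1 had 2.02, 1.30 and 1.32 CPM in UVB, 0.592, 0.326 and 0.204 CPM in Active, and 0.0782, 0.119 and 0 CPM in Quiescent libraries, the last from 2, 2 and 0 fragments. It rose 21.6-fold in UVB against Quiescent (adjusted p = 0.0012), 4.04-fold in UVB against Active (adjusted p = 0.033) and 5.35-fold in Active against Quiescent (adjusted p = 0.022). The second call was lost without any single UVB or Active library, at adjusted p of 0.0513 to 0.124, and that of Active against Quiescent without Active replicate 1 or Quiescent replicate 1 (adjusted p = 0.079 and 0.0542). Xcr1 had 5.11, 3.05 and 4.79 CPM in UVB, 0.997, 0.689 and 0.327 CPM in Active, and 0.508, 1.07 and 0.413 CPM in Quiescent libraries. It rose 6.34-fold in UVB against Active (adjusted p = 0.0077) and 6.51-fold in UVB against Quiescent (adjusted p = 0.0026), whichever library was left out. Of the 7 T cell markers, 7 rose in UVB against Active, where 14.8% of all genes did. In UVB against Quiescent, where 25.8% of all genes rose, 6 rose and Thy1 fell (adjusted p = 0.020). The part of T cells was not tested. Exons of Xcl1 overlap Gm20743 on the other strand.

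Among receptors besides Cxcr7, only Ccr9, which binds Ccl25 and guides lymphocytes to the gut, was called lower in both Active and UVB than Quiescent. It had 1.32, 0.377 and 1.62 CPM in UVB, 0.187, 0.0363 and 0.0409 CPM in Active, and 5, 4.83 and 6.26 CPM in Quiescent libraries. The 3 groups did not overlap. It fell 55.2-fold in Active against Quiescent (log2 fold change -5.79 ± 0.73, SE, adjusted p = 1.8e-04) and 4.82-fold in UVB against Quiescent (adjusted p = 0.011), and rose 11.4-fold in UVB against Active (adjusted p = 0.010). The Active libraries hold 6, 1 and 1 fragments, and without Active replicate 1 the folds of Active against Quiescent and UVB against Active were 123 and 25.6. Exons of Ccr9 overlap Slc6a20a on the other strand and Gm17200 on the same strand, so its level is uncertain. Ccl25, whose exons overlap Elavl1, had 1.49 to 3.29 CPM in all libraries and passed in no comparison with edgeR and TMM scaling.

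Members of low level made up the rest. Ccr8, found on regulatory and skin-homing T cells, had 35, 17 and 12 fragments in UVB, 11, 3 and 2 in Active, and 0, 1 and 2 in Quiescent libraries, and rose in UVB against Quiescent (log2 fold change 3.61 ± 0.95, SE, adjusted p = 0.012). That log2 fold change was 2.91 without Quiescent replicate 1 and 4.60 without Quiescent replicate 3. Ccl20, Ccl27a, Ccl28, Cxcl5, Cxcl11, Cxcl13, Ccr10, Cxcr2, Cxcr3, Cxcr5 and Ccl25 passed in no comparison with edgeR, TMM scaling and all libraries in the fit, and their highest library was Cxcl13 in UVB replicate 3, at 7.06 CPM. Of these, Cxcr2, the receptor of Cxcl1 and Cxcl2, had 1.99 to 3.37 CPM in UVB, 1.10 to 1.81 CPM in Active and 0.430 to 1.73 CPM in Quiescent libraries. With library size alone as the scaling, Cxcr2 passed in UVB against Quiescent (adjusted p = 0.010), and Ccl20 and Ccl25 passed in Active (adjusted p = 0.025 and 0.012) and in UVB (adjusted p = 0.040 and 0.0480) against Quiescent, all higher. With limma, Cxcr2 also passed in UVB against Quiescent with a pseudocount of 1 (adjusted p = 0.0460), and Ccl20 in Active against Quiescent with a pseudocount of 0.1 (adjusted p = 0.031). Cxcl13 was called lower in UVB than Quiescent without UVB replicate 3 (adjusted p = 0.0087), and lower in Active than Quiescent with only those groups in the fit (adjusted p = 0.045).

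Several calls also depended on the method. With library size alone as the scaling, the falls of Ccl3, Ccl9 and Cxcl9 in Active and of Ccl11, Ccl2 and Ccl21a in UVB against Quiescent were lost, at adjusted p of 0.160, 0.119, 0.276, 0.092, 0.065 and 0.091. With only the groups compared in the fit, Ccl3 and Ccl9 were lost in Active (adjusted p = 0.078 and 0.068) and Ccl11, Ccl3, Ccr1, Ccr2 and Ccr7 in UVB (adjusted p = 0.063, 0.068, 0.064, 0.056 and 0.093) against Quiescent. With limma on log2(FPKM + 1), Ccl3, Ccl9 and Cxcl9 were lost in Active against Quiescent (adjusted p = 0.142, 0.114 and 0.0542) and Ccr9 in UVB against Active (adjusted p = 0.078), and with log2(FPKM + 0.1), Ccl3, Ccl9 and Ccl24 were lost in Active against Quiescent (adjusted p = 0.161, 0.083 and 0.084).

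Of the 11 members not tested, Ccl21b, Ccl21c, Ccl26, Ccl27b and Cxcr1 had 0 fragments in all 9 libraries. Ccr6, the receptor of Ccl20, had 17, 5 and 9 fragments in UVB, 4, 3 and 1 in Active, and 0 in every Quiescent library. Against a floor of 3 fragments over the Quiescent group, its observed level was 6.77-fold higher in UVB and 1.88-fold higher in Active. These folds leave out the counting error of the UVB and Active fragments, so they are not lower limits. Ccl1, a ligand of Ccr8, had 14, 0 and 2 fragments in UVB, 4, 2 and 2 in Active, and 0 in every Quiescent library. Cxcl3 had 7 to 50 fragments in UVB, 0 to 8 in Active and 0 to 13 in Quiescent libraries, and Cxcl17 had 1 fragment in UVB and 1 in Active.

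A list of chemokine genes outside the name pattern, with other attractant genes such as Rarres2 and Cmklr1, was lower in Active cells. Of 9 tested genes of this list, 9 fell in Active against Quiescent, 5 fell and 0 rose in UVB against Quiescent, and 8 rose and 0 fell in UVB against Active. Of all genes, 29.2%, 23.2% and 14.8% were called in these directions. The medians of the list were -4.59, -1.70 and 2.61 on the log2 scale. The list includes 3 atypical receptors under older symbols, Darc (Ackr1), Ccbp2 (Ackr2) and Ccrl1 (Ackr4). Darc, known from the endothelium of venules, had 6.68, 5.48 and 12.9 CPM in UVB, 1.62, 1.74 and 2.33 CPM in Active, and 44.5, 39.4 and 65.1 CPM in Quiescent libraries, and fell 4.71 ± 0.39 on the log2 scale in Active against Quiescent (SE, adjusted p = 2.0e-05). Rarres2, the attractant chemerin, had 48.5, 28.7 and 112 CPM in UVB, 16.4, 18.3 and 26.0 CPM in Active, and 599, 549 and 632 CPM in Quiescent libraries (adjusted p = 5.5e-05 in Active and 5.6e-04 in UVB against Quiescent). Its receptor Cmklr1 rose in UVB against Active with a log2 fold change of 3.21 (adjusted p = 0.0028).

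Genes that carry the signal of chemokine receptors were called in both directions against Quiescent, and almost only higher in UVB against Active. Of 37 tested, 9 rose and 13 fell in Active against Quiescent, 16 rose and 7 fell in UVB against Quiescent, and 17 rose and 1 fell in UVB against Active. All genes were called higher and lower in 29.1% and 29.2%, 25.8% and 23.2%, and 14.8% and 9.19% of cases in the same order. The medians of the list were -0.18, 0.49 and 0.79 on the log2 scale, against 0.007, 0.021 and 0.014 for all genes. Pik3r6 and Pik3r5, regulators of the leukocyte kinase that chemokine receptors use, fell in Active against Quiescent (log2 fold change -4.98 and -3.33, adjusted p = 1.4e-05 and 3.1e-04) and rose in UVB against Active (log2 fold change 3.92 and 4.13, adjusted p = 6.3e-04 and 0.0011). Adrbk2, a kinase that silences receptors, rose against Quiescent in Active and in UVB (log2 fold change 3.33 and 3.82, adjusted p = 4.3e-04 and 3.6e-04). Rgs1, a leukocyte brake on G protein signals, had 30.9, 21.3 and 35.2 CPM in UVB, 4.15, 4.61 and 3.07 CPM in Active, and 3.56, 6.85 and 0.886 CPM in Quiescent libraries, and rose in UVB against both (adjusted p = 0.0092 and 0.0029).

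Calls of cytokines and factors that induce chemokines were mostly falls in Active against Quiescent and only rises in UVB against Active. In UVB against Quiescent they went both ways. All genes were called higher and lower in 29.1% and 29.2% of cases in Active against Quiescent. The shares were 25.8% and 23.2% in UVB against Quiescent and 14.8% and 9.19% in UVB against Active. Of 25 tested, 2 rose and 14 fell in Active against Quiescent, 6 rose and 8 fell in UVB against Quiescent, and 10 rose and 0 fell in UVB against Active, with medians of -0.74, -0.18 and 0.78 on the log2 scale. Osm, oncostatin M, had 17.4, 6.99 and 12.9 CPM in UVB, 0.810, 0.798 and 0.613 CPM in Active, and 1.25, 1.43 and 0.472 CPM in Quiescent libraries, and rose in UVB against Active (adjusted p = 0.0012) and Quiescent (adjusted p = 3.9e-04). Il17a, a cytokine of T cells, had 0.819 to 1.01 CPM in UVB and 0.0935 to 0.123 CPM in Active libraries and was at 0 in every Quiescent library. Against the floor of 3 fragments over the group its observed level was 18.1-fold higher in UVB than Quiescent, without the counting error of the UVB fragments. Tnfaip3, a target and inhibitor of NF-kB, and Cebpb, a transcription factor of inflammation, fell in Active (log2 fold change -3.59 and -3.07, adjusted p = 4.0e-04 and 3.2e-04) and in UVB (log2 fold change -1.60 and -1.91, adjusted p = 0.023 and 0.0047) against Quiescent. Tnfaip3 rose in UVB against Active (adjusted p = 0.021), and Cebpb did not pass (log2 fold change 1.16, adjusted p = 0.066).

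Genes for proteins that cut or present chemokines were called in both directions against Quiescent too, and mostly higher in UVB against Active. Of all genes, 29.1% and 29.2% were called higher and lower in Active against Quiescent. The shares were 25.8% and 23.2% in UVB against Quiescent and 14.8% and 9.19% in UVB against Active. Of 19 tested, 6 rose and 8 fell in Active against Quiescent, 7 rose and 8 fell in UVB against Quiescent, and 8 rose and 1 fell in UVB against Active, with medians of -0.26, 0.12 and 0.45 on the log2 scale. Dpp4, a protease that trims Cxcl12 and other chemokines, had 11.7, 8.39 and 29.5 CPM in UVB, 2.46, 3.01 and 0.981 CPM in Active, and 230, 203 and 280 CPM in Quiescent libraries (adjusted p = 2.9e-05 in Active and 4.2e-04 in UVB against Quiescent). Hs2st1, an enzyme that builds the heparan sulfate that holds chemokines, rose in Active (log2 fold change 1.60, adjusted p = 1.6e-05) and in UVB (1.67, adjusted p = 2.7e-05) against Quiescent. Sdc2, which carries heparan sulfate at the cell surface, fell in Active (log2 fold change -1.93, adjusted p = 1.4e-05) and in UVB (-1.48, adjusted p = 8.7e-05) against Quiescent. Adam10, which sheds Cx3cl1 and Cxcl16 from the cell surface, rose against Quiescent by 1.10 in Active and 1.04 in UVB on the log2 scale (adjusted p = 5.3e-05 and 1.3e-04).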

How the data were processed

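Per the labels, 9 libraries of sorted mouse skin cells, 3 per group, were made from poly(A) RNA with a directional kit. Per the submitters' processing notes, cutadapt 1.8, TopHat2 2.0.13, Cuffdiff 2.2.1 and build mm10 were used, whereas annotation and strand setting were not given in the sources used here. Deposited values came as 1 table, which holds, per the file headers, unscaled estimated counts of fragments for each gene and the authors' FPKM, scaled between libraries. Of its 210249 count values, 1.08% were not whole to within 1e-06.

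After rounding, the counts went into a single model of the 9 libraries with group means, tested by the quasi-likelihood F test of edgeR 4.0.16 (R 4.3.3). TMM factors were 0.66 to 1.225. The function filterByExpr removed 8283 genes and left 15078. Adjusted p-values are two-sided Benjamini-Hochberg values over all genes tested, with a threshold of 0.05, and SE is the absolute log2 fold change over sqrt(F). Variation between replicates was estimated at 0.28 (coefficient of variation), and the fits across all genes were tested on simulated data. Library totals of 21045071 to 35131778 fragments set the precision. Floors of 3 fragments cover only the counting error of the group at 0. No libraries within a group agreed within sampling noise, with chi-square values of 24.5 to 113.6 per degree of freedom.

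Members in full were those called in any comparison with a group mean of at least 5 CPM, or with at least 20 CPM; other members are named by their ligand or receptor, and lists by their smallest adjusted p. Not every gene that the list rule allows is named, and 1 member, included in the counts, is not reported here. The members and lists were chosen with earlier results of these data known. Alternatives were other scalings and filters, DESeq2 1.42.0, limma 3.58.1 on log2(FPKM + 1) and log2(FPKM + 0.1), single comparisons, a replicate block and leaving out each library. Gene positions are from GENCODE M21, and promoters from RefSeq (GRCm38.p6).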

Additional observations from a re-analysis of the deposited data

How the results depend on the processing

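With all libraries, 2 members rose and 14 fell in Active against Quiescent, 15 rose and 6 fell in UVB against Quiescent, and 23 rose and 0 fell in UVB against Active. Leaving out 1 library gave 1 to 3 and 9 to 19, 10 to 23 and 4 to 9, and 11 to 27 and 0. Over all genes the same fits gave 3843 to 4452 and 3679 to 4486, 3214 to 3865 and 2687 to 3728, and 999 to 2548 and 453 to 1678. The 2 that rose in Active against Quiescent became 5 with library size alone as the scaling, 3 without a filter or with limma on log2(FPKM + 0.1), and 1 with at least 50 counts in 3 libraries or with only the 2 groups compared. The 6 that fell in UVB against Quiescent became 3 with library size alone. That scaling shifted the all-gene median to 0.757 (Active) and 0.742 (UVB) on the log2 scale against Quiescent, so changes against Quiescent are relative to TMM scaling. Of 1504 alternative values for 84 comparisons of the 28 members described one by one, 1322 kept direction and call, 115 lost the call, 34 gained it and 33 turned direction, none of them called with all libraries.

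Turned values were, in log2 fold change, -0.00 and -0.02 for Cxcl2 in Active against Quiescent (DESeq2 size factors, and 50 counts in 3 libraries). For Cxcr4 in Active against Quiescent they were 0.64 (library size alone), 0.20 and 0.36 (limma with pseudocounts of 1 and 0.1) and 0.01 (replicate block). For Ccl24 in UVB against Quiescent they were 0.13 and 0.58 (limma) and 0.52 (replicate block), and with library size alone 0.37 for Cx3cl1, 0.22 for Cxcl12 and 0.64 for Cxcl16. Leaving out a library gave, in Active against Quiescent, -1.63 to 0.44 for Ccl4, -1.57 to 1.45 for Ccr1, -1.95 to 1.24 for Ccr7, -0.35 to 0.71 for Cxcl2 and -0.50 to 1.06 for Cxcr4. In UVB against Quiescent it gave -1.50 to 2.48 for Ccl24, -0.23 to 2.92 for Ccl6, -1.80 to 1.10 for Ccl8, -0.67 to 0.08 for Cx3cl1, -0.27 to 0.19 for Cxcl16 and -0.05 to 0.52 for Cxcl9. In UVB against Active it gave -0.79 to 1.14 for Cxcl1, -1.01 to 0.17 for Cxcl10, -0.01 to 0.55 for Cxcl12 and -0.04 to 0.21 for Cxcr7. The causes of these turns were not tested beyond the library left out.

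Same-numbered libraries did not deviate together (r of -0.181 to 0.192, 4 of 9 libraries closest to their own number), so the numbers do not pair the libraries. With the replicate block, 2 members rose and 10 fell in Active against Quiescent, 14 and 4 in UVB against Quiescent, and 19 and 0 in UVB against Active. Over all genes that fit gave 4135 and 4088, 3580 and 3229, and 1826 and 1004. Values that DESeq2 gives as missing were left out.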
